A study of Homo sapiens with 4 samples.

Results

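The genes that make, carry and sense bile acids were examined for chromatin accessibility in HepG2 cells, a human liver cancer line. The group held 10 genes chosen by function, though with earlier results of these data known. They were the enzymes CYP7A1, CYP8B1, CYP27A1 and BAAT, the nuclear receptors NR1H4 and NR0B2, and the transporters SLC10A1, SLCO1B1, ABCB11 and ABCC2. Each gene was given a window of its GENCODE gene body with 10 kb on either side, and every accessible region overlapping a window was taken. The windows held 44 of the 80551 regions found in the series. None of the 10 windows was without a region.

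Hepatocytes turn cholesterol into bile acids, and CYP7A1 catalyses the rate-limiting step of the classic route. The finished acids are conjugated to glycine or taurine by BAAT, exported into bile by canalicular pumps and taken up again from portal blood by transporters on the other face of the cell. Bile acids bind the receptor FXR, the product of NR1H4, which switches on the corepressor SHP, the product of NR0B2, and SHP lowers transcription of CYP7A1. The study asked where chromatin opened or closed when EZH2 was inhibited. EZH2 is the catalytic subunit of polycomb repressive complex 2, which methylates lysine 27 of histone H3 at silenced genes, and tazemetostat is a selective inhibitor of it.

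There were 2 libraries of untreated wild-type HepG2 cells and 2 libraries of wild-type HepG2 cells exposed to 5 µM tazemetostat for 48 h, each made from 50000 cells by ATAC-seq, in which a transposase cuts open DNA. The drug was given in DMSO, and the labels call the controls untreated without naming a vehicle. The study's methods describe a DNase I pretreatment of the tazemetostat-treated cells, meant to clear free DNA and that of dead cells. They do not say whether the controls had it. If they did not, the effects of that step and of the drug cannot be told apart. Nothing in the labels says that the libraries of a group came from separate cultures, so p-values measure only the spread between these libraries, which may be technical. HepG2 is 1 tumour-derived line and not a normal hepatocyte.

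Mapped tags ranged from 17.2 to 23.8 M for untreated cells and from 19.8 to 26.6 M for treated cells, so the ranges of depth overlapped. Between 26133 and 34768 peaks were listed in the controls and between 54157 and 55313 under tazemetostat, and the peaks took 4.32% and 5.69% of tags in the controls against 11.5% and 9.81% under tazemetostat. The peak caller assumed fragments of 200 bp in both controls and 144 bp in both treated libraries, and the effects of that choice and of the drug cannot be told apart. Of 11 hepatocyte markers, 7, 8, 7 and 8 had a peak over a transcription start in control 1, control 2, tazemetostat 1 and tazemetostat 2, with summed normalised tag counts of 166, 240, 357 and 280. ALB, APOC3 and FGB had none in any library. Of 13 markers of lymphoid, myeloid, endothelial and mesenchymal cells, 1 and 2 had such a peak in the controls and 5 and 4 under tazemetostat, with summed normalised tag counts of 18.0 and 72.6 against 207 and 143. PTPRC, CD3E, CSF1R, PECAM1, KDR, STAB2, COL1A1 and COL1A2 had none in any library. The part of peak number, fragment length, the DNase I step and these markers in the results below was not tested. In these bulk libraries more cells with open chromatin at a site and a more open site in each cell cannot be told apart.

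The unit of every level below is the normalised tag count, the number of tags in a peak per 10 M mapped tags of the library. A site with no called peak carries no value, so its absence means only that no peak passed the caller's limits. Those limits included at least 14, 16, 14 and 16 tags in the initial peak in the order control 1, control 2, tazemetostat 1 and tazemetostat 2, which equals 8.14, 6.72, 7.05 and 6.02 normalised tags, and a 4-fold excess over the surrounding 10 kb. The tags finally listed for a peak could be fewer, with lowest values of 6.40, 5.04, 5.04 and 4.89. Coordinates are on hg38, and distances are counted from the start of the MANE transcript, the standard transcript of each gene, to the centre of the region. Regions are numbered within each gene along its direction of transcription.

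The central 300 bases of 3 regions are shown, chosen as follows. The region over the NR0B2 start was the member region with the most tags, and the NR1H4 region in intron 1 had the largest difference between the groups. The CYP27A1 region shares a motif with the NR0B2 region. Capitals mark a match to the NR5A2 consensus CAAGGTCA or its reverse complement TGACCTTG in the NR0B2 and CYP27A1 regions, and the NR1H4 region held none of the motifs searched.
NR0B2 region 2, chr1:26914120-26914419, minus strand: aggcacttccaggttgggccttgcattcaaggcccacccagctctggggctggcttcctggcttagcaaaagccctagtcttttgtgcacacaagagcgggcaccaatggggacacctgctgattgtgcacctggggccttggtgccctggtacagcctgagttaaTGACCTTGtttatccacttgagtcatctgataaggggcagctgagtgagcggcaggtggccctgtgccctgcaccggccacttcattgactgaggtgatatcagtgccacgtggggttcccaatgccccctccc
NR1H4 region 3, chr12:100476222-100476521, plus strand: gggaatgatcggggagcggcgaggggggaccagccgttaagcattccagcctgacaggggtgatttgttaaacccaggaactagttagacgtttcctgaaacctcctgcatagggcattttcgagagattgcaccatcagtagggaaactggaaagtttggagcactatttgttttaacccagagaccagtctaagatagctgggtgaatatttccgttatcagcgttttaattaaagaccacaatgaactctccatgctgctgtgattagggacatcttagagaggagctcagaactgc
CYP27A1 region 7, chr2:218806435-218806734, plus strand: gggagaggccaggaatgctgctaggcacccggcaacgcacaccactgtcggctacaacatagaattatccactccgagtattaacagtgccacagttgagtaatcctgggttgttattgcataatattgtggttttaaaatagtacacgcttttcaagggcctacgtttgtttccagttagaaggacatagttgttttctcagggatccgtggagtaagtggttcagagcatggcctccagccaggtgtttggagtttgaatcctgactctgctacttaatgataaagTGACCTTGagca

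To see how many accessible sites the genes had in each library, peaks in the windows were counted. There were 18 and 26 peaks in control 1 and control 2 and 32 and 34 in tazemetostat 1 and tazemetostat 2, so the treated libraries had more. As a share of all peaks of the library these were 0.0689% and 0.0748% in the controls and 0.0579% and 0.0628% under tazemetostat. The share was thus lower in both treated libraries while the number was higher. In total they covered 7737 and 11578 bp before and 15003 and 15243 bp after treatment. Their summed normalised tag counts were 330 and 487 in the controls and 850 and 683 under tazemetostat. Per kb of peak this gave 42.7 and 42.1 in the controls against 56.7 and 44.8. A peak was listed for 8 and 9 of the genes in the controls and for all 10 in both treated libraries. When an equal number of the highest peaks was kept from each library, the mean difference of 11 peaks between the groups came to 0.

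**Figure D1:**
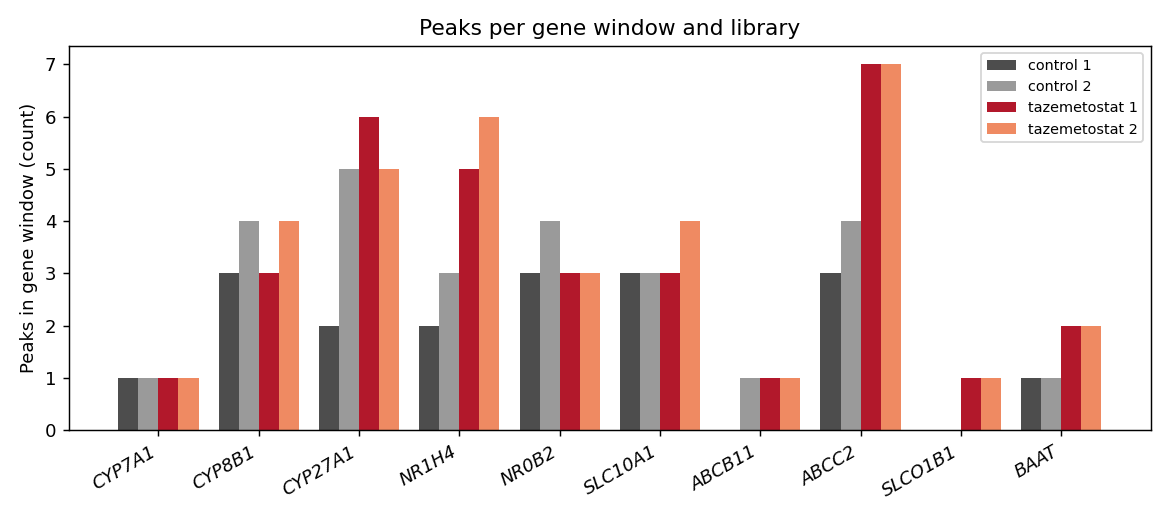
Bars give the number of peaks (count, axis from 0) in the window of each of the 10 genes in each of the 4 libraries, with controls in grey and tazemetostat in red and orange. ABCC2 had 3 and 4 peaks in the controls and 7 in each treated library, and SLCO1B1 had none in either control.

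The 44 regions were then sorted by the libraries in which a peak was called. There were 16 regions called in all 4 libraries (36.4%, against 20.4% of all regions in the series). There were 4 regions called only in the 2 treated libraries (9.09%, against 13.7%), and no region called in both controls alone (against 0.449%). A further 5 regions were called in both treated libraries and 1 control (11.4%, against 13.2%), and in each case that control was control 2, the deeper one. Another 15 were called in 1 library only (34.1%, against 46.2%) and 4 in 1 library of each group. The 4 regions called under tazemetostat alone belonged to 3 of the 10 genes (NR1H4, ABCC2 and SLCO1B1), and 32.5% of the 20033 protein-coding genes had at least 1 such region in their window. A region shared by all libraries lay over a transcription start of 5 genes (CYP7A1, CYP8B1, CYP27A1, NR0B2 and ABCC2), against 33.3% of protein-coding genes. NR1H4, SLC10A1, ABCB11, SLCO1B1 and BAAT had no such region.

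**Figure D2:**
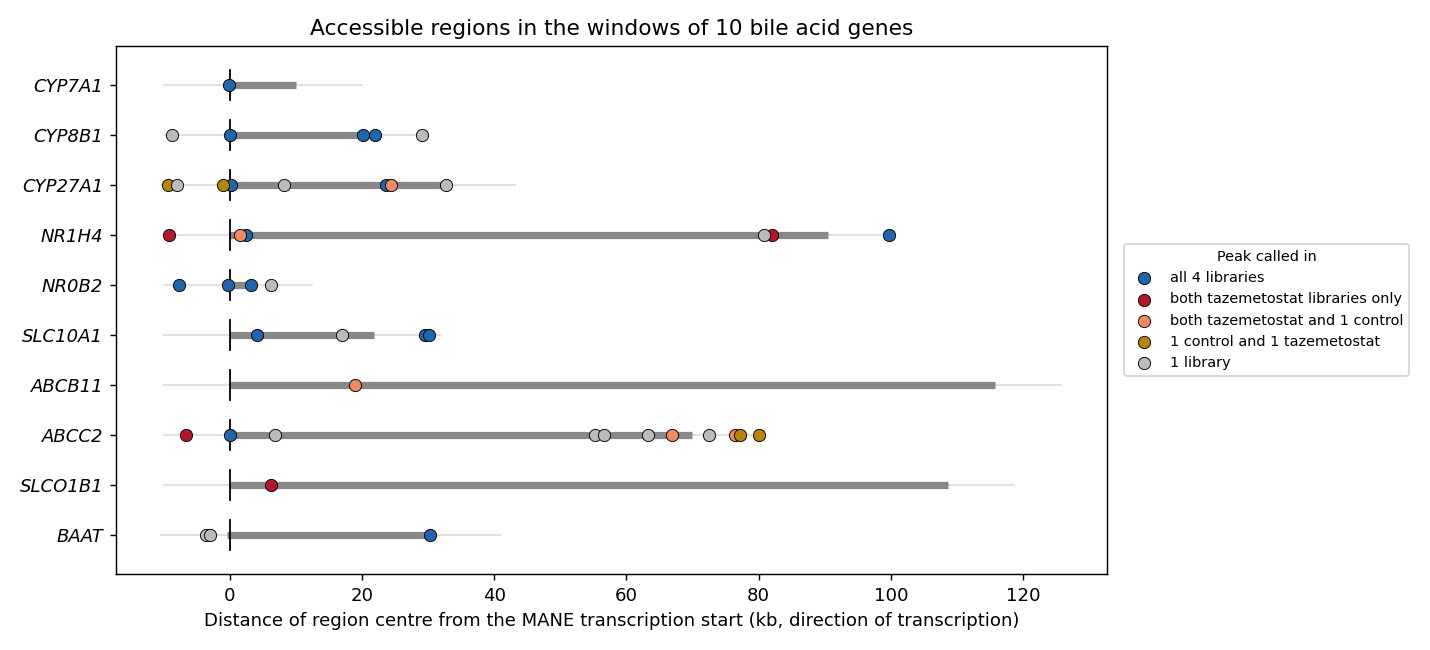
Each point is 1 of the 44 regions, placed by the distance of its centre from the MANE transcription start (kb, linear axis), with the gene body as a thick grey bar and the 10 kb flanks as thin lines. Colours give the libraries with a peak, and the 4 red points of NR1H4, ABCC2 and SLCO1B1 are the regions called in both tazemetostat libraries alone.

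Tag counts could be compared in the 16 regions with exactly 1 peak in every library, out of 15383 such regions in the series. A region had to be open in the controls to enter this comparison. On the deposited scale all 16 had a higher mean under tazemetostat, 11 of them (68.8%) with both treated values above both controls, as was the case for 81.6% of all tested regions. In limma on log2(normalised tag count + 1), with Benjamini-Hochberg adjustment over the 15383 regions, 7 of the 16 (43.8%) passed the 0.05 threshold in the higher direction, against 42.7% of all tested regions. None passed in the lower direction, against 0.247% of all tested regions. At an unadjusted limma p under 0.05, 0 of the 16 were lower, against 68 of the 15383. The median log2 difference of the 16 was 0.71, with a range of 0.07 to 1.16, and the median of all tested regions was 0.70. Of the 16, 8 lay above that overall median and 8 at or below it. The members' share of calls and their median were thus near those of the whole table.

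The median shift of 0.70 of all tested regions on the deposited scale matters for each direction given below. When each library was centred on its own median, 7 of the 16 regions were positive and 9 negative, and limma called 0 in either direction (unadjusted p under 0.05 in 0 higher and 2 lower regions). With edgeR and TMM factors, which remove the same shift, 8 were positive and 8 negative, and 0 were called (0 at an unadjusted p under 0.05), as with DESeq2 size factors (0 called and 0 at an unadjusted p under 0.05). Leaving out control 1 gave 1 call among the 16 (6.25%, against 21.0% of all tested regions), and leaving out control 2 gave 8 (50.0%, against 54.6%). With only 1 treated library limma called 0 of the 15383 regions, so those fits cannot show whether a member's call holds. The 7 called regions stayed positive in them, with log2 differences of 0.52 to 1.04 without tazemetostat 1 and 0.86 to 1.38 without tazemetostat 2, against 0.81 to 1.16 with all libraries. Peaks were longer on average under tazemetostat in 13 of the 16 regions, and in 85.7% of all tested regions. Per kb of peak, 5 regions were called higher (31.2%, against 32.9% of all tested regions) and the median difference was 0.39, against 0.41 for all.

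**Figure D3:**
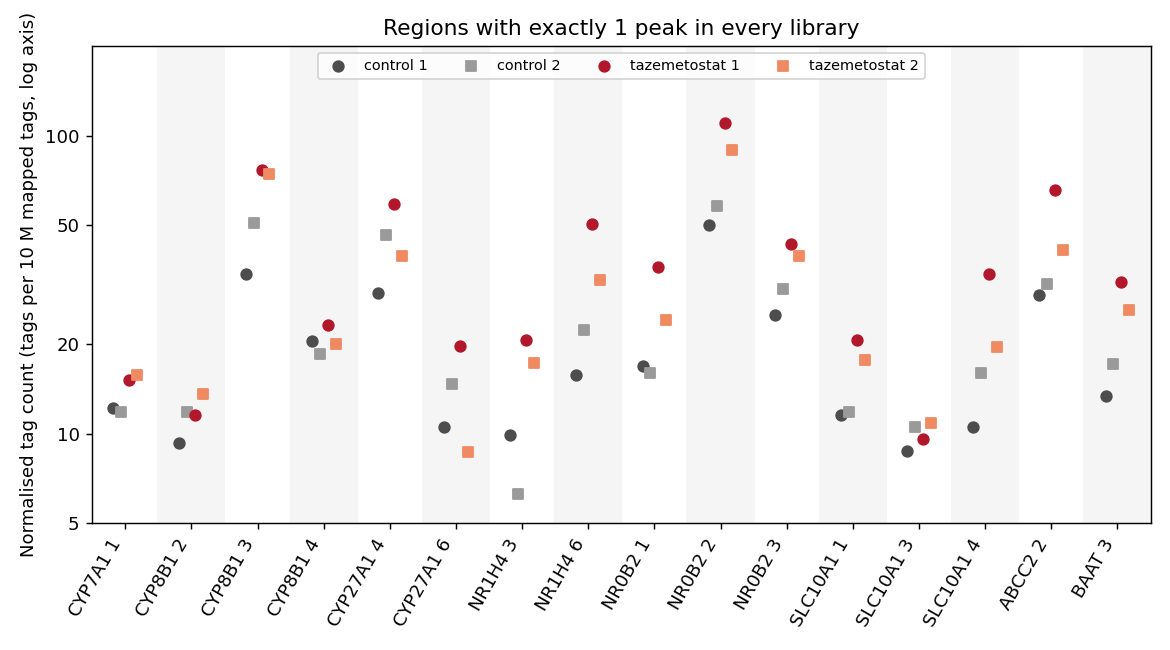
Normalised tag counts (tags per 10 M mapped tags, log axis) of the 16 regions with 1 peak in every library are drawn as 1 point per library, with controls in grey and tazemetostat in red and orange. The NR0B2 start region ran from 50.0 to 110 and was the highest, while the 4 points of SLC10A1 region 3 lay between 8.73 and 10.9.

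CYP7A1, the rate-limiting enzyme of the classic route, had a single region in its window, at chr8:58500150-58500534, centred 179 bp upstream of the start and reaching over it. Its normalised tag counts were 12.2 and 11.8 in the controls and 15.1 and 15.8 under tazemetostat. The treated values were both higher, but by 1.29-fold, which did not pass the test (log2 difference 0.34, SE 0.29, limma adjusted p = 0.303). The difference was smaller than that of most regions, at the 15th percentile of all tested regions, and was -0.42 after centring. The site stood out more from its surroundings than most, with a mean local fold (tags over the surrounding 10 kb) of 26.1, at percentile 98.3 of tested regions. Its local folds were 26.1, 22.1, 38.8 and 17.5 in control 1, control 2, tazemetostat 1 and tazemetostat 2.

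CYP8B1, the sterol hydroxylase that diverts the pathway to cholic acid, had 5 regions. Region 2 lay over its start at chr3:42875656-42876159 and held 9.31 and 11.8 normalised tags in the controls and 11.6 and 13.6 under tazemetostat. The groups overlapped and the difference did not pass (log2 0.24, SE 0.30, limma adjusted p = 0.471, and -0.52 after centring). Region 3, at chr3:42855218-42856223, crossed the far end of the gene and was annotated to a promoter of ACKR2, a scavenger receptor for chemokines. It held 34.3 and 50.8 in the controls and 76.6 and 74.2 under tazemetostat, and rose 1.77-fold (log2 0.84, SE 0.30, limma adjusted p = 0.0359). It also passed per kb of peak (log2 0.68, limma adjusted p = 0.0150), and after centring its difference was 0.08. Region 4, inside ACKR2, held 20.4 and 18.5 against 23.2 and 20, with overlapping groups, and did not pass (log2 0.14, SE 0.30, limma adjusted p = 0.666, -0.62 after centring and -0.02 per kb). Region 1 (7.15, tazemetostat 2) and region 5 (7.98, control 2) were each called in 1 library. Of this gene's 3 compared regions, the one that passed was thus the one at the ACKR2 promoter, 20159 bp from the CYP8B1 start.

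CYP27A1, the mitochondrial enzyme that opens the alternative route, had 8 regions, 2 of them compared. Region 4 at chr2:218781829-218782741 lay over the start and exon 1 and held 29.7 and 46.6 in the controls and 59.0 and 39.5 under tazemetostat. The groups overlapped (log2 0.37, SE 0.32, limma adjusted p = 0.308, -0.39 after centring). Region 6 in intron 1, at chr2:218805489-218806014, held 10.5 and 14.7 against 19.7 and 8.66. The treated libraries were the highest and the lowest of the 4, and the log2 difference was 0.07 (SE 0.34, limma adjusted p = 0.849). It was -0.69 after centring, and it turned to -0.48 without tazemetostat 1 and -0.15 without control 1. Region 7, also in intron 1 and 24438 bp past the start, is one of the regions printed above. It had no peak in control 1 and held 15.1 in control 2, 22.7 in tazemetostat 1 and 14.3 in tazemetostat 2, so control 2 lay between the treated libraries. Region 3, centred 1083 bp upstream, was called at 16.4 in control 2 and 20.2 in tazemetostat 1. Region 1, 9291 bp upstream, was called at 6.3 in control 2 and 10.2 in tazemetostat 2. Regions 2, 5 and 8 were called in 1 treated library each, at 8.28, 7.56 and 9.57. No CYP27A1 region with a peak in both treated libraries had both values above every control value.

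BAAT, which conjugates bile acids to glycine or taurine, had no peak over its start in any library. Region 3 at chr9:101354417-101354952 lay in an intron of a longer BAAT transcript, 30322 bp from the MANE start and beyond the end of the MANE transcript. It held 13.4 and 17.2 in the controls and 32.3 and 26.0 under tazemetostat, and rose 1.91-fold (log2 0.89, SE 0.30, limma adjusted p = 0.0280, 0.13 after centring). It did not pass per kb of peak (log2 0.51, limma adjusted p = 0.0570). The treated libraries lay clear of the controls, and the local fold was high in all of them, at 14.6, 15.7, 18.2 and 18.7. Regions 1 and 2 belonged to the neighbouring gene MRPL50, a mitochondrial ribosomal protein, and were called at 6.55 in tazemetostat 1 and at 10.2 in tazemetostat 2.

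NR1H4, which encodes the bile acid receptor FXR, had 6 regions, of which 2 passed the test. Region 3 lay in intron 1 at chr12:100476053-100476691, 2506 bp past the start, and its central bases are printed above. It held 9.89 and 6.30 in the controls and 20.7 and 17.3 under tazemetostat, and rose 2.35-fold, the largest difference among the 16 (log2 1.16, SE 0.31, limma adjusted p = 0.0131). That placed it at percentile 91.3 of the log2 differences of all tested regions. It passed per kb of peak (log2 0.56, limma adjusted p = 0.0368), and after centring its difference was 0.40 and did not pass. The controls rested on 17 and 15 tags and the treated libraries on 41 and 46, so the lower values lay close to the calling limit.

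Next to it in intron 1, NR1H4 region 2 at chr12:100475219-100475725 had no peak in control 1 and held 7.56 in control 2, 19.1 in tazemetostat 1 and 16.2 in tazemetostat 2. Its 95% exact Poisson intervals, which cover counting error only, were 4.48 to 11.9 in control 2 against 13.5 to 26.2 and 11.7 to 21.8 under tazemetostat. Region 5 in intron 9, 82007 bp past the start, was called in both treated libraries alone, at 14.6 and 5.65. Region 1, 9156 bp upstream, was also called in both treated libraries alone, at 7.56 and 5.65, from 15 tags in each. The 5.65 of tazemetostat 2 in both regions lay under the limits of both controls (8.14 and 6.72). The 7.56 of region 1 lay under that of control 1 alone, and the 14.6 of region 5 lay above both. A peak under a limit could go unlisted in that control. Region 4, also in intron 9, was called at 6.78 in tazemetostat 2. Region 6, at the far end of the window over a promoter of the neighbouring gene GAS2L3 (chr12:100573112-100574178), held 15.7 and 22.3 against 50.4 and 32.8 and rose 2.19-fold (log2 1.08, SE 0.32, limma adjusted p = 0.0172). It did not pass per kb of peak (log2 0.39, limma adjusted p = 0.136), and after centring its difference was 0.32. In the NR1H4 window the treated values lay above the control values in each of the 3 regions where both groups had one. Among these, region 2 had no value in control 1 and region 6 lay at the GAS2L3 promoter. Of all tested regions, 81.6% had both treated values above both control values.

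NR0B2, which encodes the corepressor SHP, had the most accessible member region. Region 2 lay over its start at chr1:26913855-26914686 and held 50.0 and 58.0 in the controls and 110 and 89.6 under tazemetostat. It rose 1.85-fold (log2 0.87, SE 0.30, limma adjusted p = 0.0288), and it also passed per kb of peak (log2 0.71, limma adjusted p = 0.0116). Its mean density of 104 normalised tags per kb was at percentile 98.7 of tested regions, while the log2 difference was at percentile 70.0 and was 0.11 after centring. Region 1 at chr1:26921272-26922020, over a promoter of the neighbouring gene NUDC, a dynein-associated protein, held 16.9 and 16.0 against 36.3 and 24.1 and rose 1.84-fold (log2 0.81, SE 0.31, limma adjusted p = 0.0402, 0.05 after centring). Region 3, inside NUDC at chr1:26910464-26910975, held 25.0 and 30.7 against 43.3 and 39.5 and did not pass, although the groups did not overlap (log2 0.56, SE 0.30, limma adjusted p = 0.110, -0.20 after centring). Region 4 was called at 11.8 in control 2 alone.

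SLC10A1, which encodes NTCP, the sodium-coupled bile acid importer, had 4 regions and none over its start. Region 1 in intron 1, at chr14:69792879-69793403 and 4100 bp past the start, held 11.6 and 11.8 in the controls and 20.7 and 17.7 under tazemetostat. The groups did not overlap, but the difference did not pass (log2 0.67, SE 0.29, limma adjusted p = 0.0667, -0.09 after centring). Per kb of peak it passed (log2 0.54, limma adjusted p = 0.0452). Region 2 in intron 2 was called at 7.15 in tazemetostat 2 alone. Regions 3 and 4 lay beyond the gene over promoters of SRSF5, a splicing factor. Region 4 at chr14:69766748-69767359 held 10.5 and 16.0 against 34.3 and 19.6 and rose 2.03-fold (log2 0.95, SE 0.33, limma adjusted p = 0.0300, 0.19 after centring). It did not pass per kb of peak (log2 0.38, limma adjusted p = 0.144). Region 3 at chr14:69767430-69768062 held 8.73 and 10.5 against 9.57 and 10.9, with overlapping groups (log2 0.08, SE 0.30, limma adjusted p = 0.799, -0.68 after centring). Whether the 2 regions differed in response was not tested.

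SLCO1B1, which encodes OATP1B1, a sodium-independent importer of bile acids and drugs, had 1 region in a gene body of 108603 bp and none over its start. It lay in intron 1, 6261 bp past the start, and was called under tazemetostat alone. The values were 9.07 (95% exact Poisson interval 5.38 to 14.3) and 6.40 (3.73 to 10.2), from 18 and 17 tags, which lay 20.8-fold and 11.7-fold over the surrounding 10 kb. The value of tazemetostat 2 was below the limits of both controls (8.14 and 6.72), so a difference from the controls was not detectable at this depth in that library. The region is also annotated to a second gene that has an identifier but no symbol.

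ABCB11, which encodes BSEP, the pump that exports bile salts into bile, had 1 region in a gene body of 115827 bp. It lay in intron 5, 18879 bp past the start, and no peak was called over the start in any library. There was no peak in control 1, and the values were 8.82 in control 2, 18.1 in tazemetostat 1 and 14.3 in tazemetostat 2. Their exact Poisson intervals were 5.46 to 13.5, 12.7 to 25.1 and 10.1 to 19.6, so the interval of control 2 overlapped both others. The local folds were 28.3 and 14.2 in the treated libraries.

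ABCC2, which encodes MRP2, the canalicular exporter of conjugated bile salts and bilirubin, had the most regions, 11 in all. Region 2 lay over the start at chr10:99782288-99782982 and held 29.1 and 31.9 in the controls and 65.5 and 41.4 under tazemetostat. The groups did not overlap and the fold of the means was 1.75, but limma did not call it (log2 0.75, SE 0.31, adjusted p = 0.0526). With edgeR on the library sizes of the headers it passed (quasi-likelihood adjusted p = 0.0201), per kb of peak it did not (log2 0.36, limma adjusted p = 0.172), and after centring its log2 difference was -0.01, next to 0. The start region was among the denser ones, with 76.0 normalised tags per kb at percentile 92.9. Region 1, 6620 bp upstream, was called under tazemetostat alone at 6.55 and 12.8, from 13 and 34 tags. The 6.55 of tazemetostat 1 lay below the limits of both controls (8.14 and 6.72), and the 12.8 of tazemetostat 2 above them. A peak as low as that of tazemetostat 1 could thus go unlisted in the controls.

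Of the other ABCC2 regions, region 3 lay in intron 2, and the rest lay in later introns or past the gene's end. Region 7 in intron 30 had no peak in control 1 and was about level in the rest, at 19.7 in control 2, 22.2 in tazemetostat 1 and 20.3 in tazemetostat 2. Region 9, past the end, had no peak in control 1 and held 10.9 in control 2, 20.2 in tazemetostat 1 and 10.2 in tazemetostat 2. Region 10 was called at 7.56 in control 2 and 9.41 in tazemetostat 2, and region 11 at 8.73 in control 1 and 11.1 in tazemetostat 1. Regions 3, 4, 6 and 8 were each called in 1 treated library, at 6.05, 15.4, 20.2 and 12.4, and region 5 in intron 25 in control 1 alone, at 14.5.

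**Figure D4:**
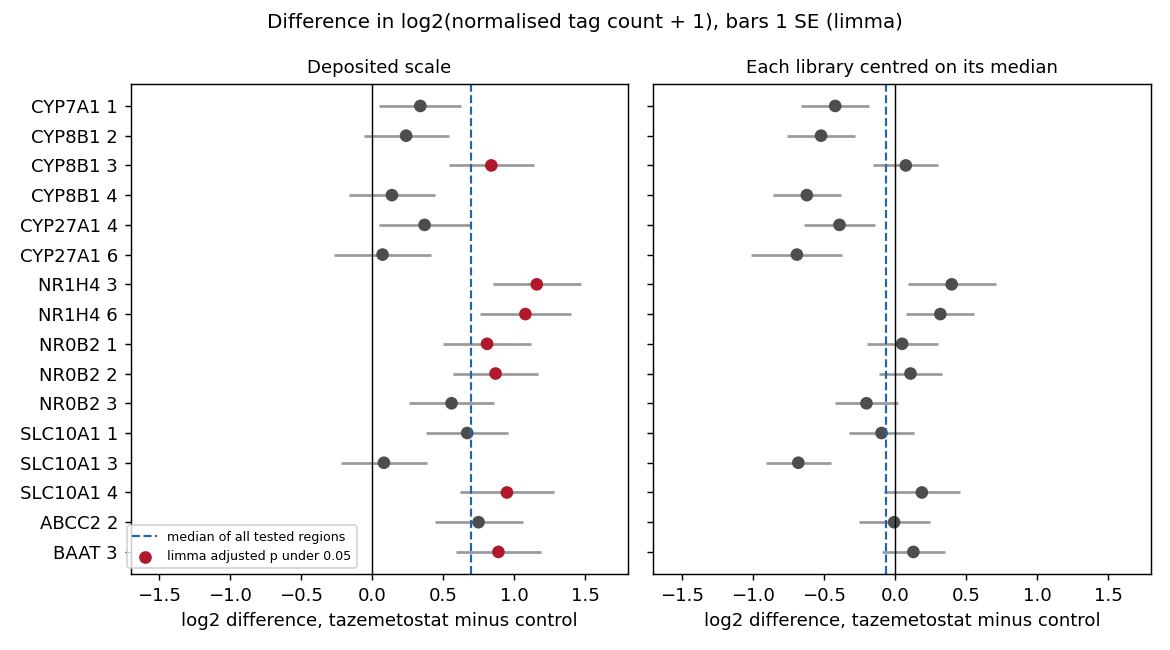
Points are the log2 differences (tazemetostat minus control) of the 16 compared regions and bars are 1 SE from limma, on the deposited scale at left and with each library centred on its median at right. At left all 16 points lie above 0 and 7 are red (adjusted p under 0.05), around the dashed median of all regions at 0.70, and at right 9 points lie below 0.

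Of the 7 regions that passed on the deposited scale, 3 lay in the promoter or body of the bile acid gene itself (NR0B2 region 2, NR1H4 region 3 and BAAT region 3). The other 4 lay over promoters of neighbouring genes inside the windows (ACKR2, GAS2L3, NUDC and SRSF5). Over all 44 regions, 19 had their centre in the member gene, 13 in other genes alone and 12 in no gene. This count went by the centre only. It thus put the start regions of NR0B2, CYP8B1, CYP7A1 and ABCC2, centred just upstream, outside their genes. The 4 regions called under tazemetostat alone were low, with a median of 8.71 normalised tags over the treated libraries, against 10.7 for all regions of that kind and 31.0 for regions shared by all libraries.

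Short sequence motifs were searched on both strands, over 300 bp around every region's centre. The consensus of the orphan receptor NR5A2 (LRH-1), which activates CYP7A1 and NR0B2 in liver, was CAAGGTCA and was present in 2 of 44 member regions (4.55%), against 3.07% of the 78220 regions on the primary chromosomes. These were NR0B2 region 2, where it lay at chr1:26914246-26914253, and CYP27A1 region 7, at chr2:218806723-218806730, as printed above. The consensus of the pioneer factor FOXA (TGTTTAC or TGTTTGC) was present in 6 member regions (13.6%), against 15.5% of all regions, among them CYP7A1 region 1, CYP27A1 regions 1, 5 and 8 and BAAT region 2. None of the members held the HNF4 consensus (CAAAGTCCA or CAAAGTTCA), which was in 2.92% of all regions. None held the FXR inverted repeat (AGGTCANTGACCT, 0.00639%) or the HNF1 palindrome (GTTAATNATTAAC, 0.0294%). The NR5A2 letters contain the 6 letters that the FXR repeat carries on either side of its spacer. In the RefSeq promoters on the same build (250 bases before to 50 after the start), 8 entries matched 7 member genes, and none of the 8 held any of the 5 motifs, which were in 1.28% (NR5A2), 7.17% (FOXA), 0.681% (HNF4), 0.0% (FXR) and 0.0057% (HNF1) of the 35116 promoters. CYP7A1, CYP8B1 and NR0B2 had no entry. A match is a description of the letters and not a binding site.

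The remaining genes of bile acid metabolism were examined as a list of 43 genes in 4 roles, of which 41 had a region and 18 had a region shared by all libraries over a start. Of its 63 compared regions, 36 (57.1%, against 42.7% of all tested regions) passed in limma in the higher direction. In the lower direction 0 passed, against 0.247% of all tested regions. At an unadjusted limma p under 0.05, 0 of the 63 were lower, against 68 of the 15383 tested regions. The median log2 difference was 0.77, against 0.70 for all tested regions. On other scales 0 of the 63 passed after centring (with unadjusted p under 0.05, 2 higher and 1 lower), 0 with edgeR and TMM factors (2 and 1) and 0 with DESeq2 (1 and 0). Per kb of peak 21 of the 63 passed (33.3%, against 32.9% of all tested regions), and without control 1 there were 13 (20.6%, against 21.0%). With only 1 treated library, where limma called 0 regions of the whole table, the 63 differences were all positive, with medians of 0.65 without tazemetostat 1 and 0.81 without tazemetostat 2. Regions called under tazemetostat alone numbered 33 of 224 (14.7%, against 13.7% of all regions), spread over 24 genes, and none was called in both controls alone.

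Among the 15 further enzymes of synthesis, 10 of 17 compared regions passed (58.8%, against 42.7% of all tested regions), with a median log2 difference of 0.80. In every role 0 regions passed after centring, with TMM factors or with DESeq2. The largest promoter difference was at CYP39A1, the oxysterol hydroxylase, whose promoter is shared with SLC25A27 and held 9.89 and 6.30 in the controls and 33.3 and 23 under tazemetostat. It rose 3.48-fold (log2 1.69, SE 0.32, limma adjusted p = 0.00423), and its difference after centring was 0.93 (limma adjusted p = 0.350). The controls rested on 17 and 15 tags, close to the calling limit. AMACR, the racemase of side-chain oxidation, held 23.8 and 28.6 against 52.9 and 45.2 (log2 0.88, SE 0.30, limma adjusted p = 0.0278), and did not pass per kb of peak (limma adjusted p = 0.0764). Peaks called under tazemetostat alone lay 139 bp upstream of the cholesterol 24-hydroxylase CYP46A1 (14.1 and 20). They also lay 81 bp upstream of the steroid reductase AKR1D1 (17.6 and 9.03). Another (16.6 and 20.3) lay in intron 11 of the side-chain oxidase ACOX2, at a promoter 14057 bp past its MANE start. Over the ACOX2 MANE start itself a peak was called in tazemetostat 1 alone, at 19.1. Others lay in the windows of SLC27A2 (13.1 and 12) and ABCD3 (9.07 and 6.78). Local folds were 4.12 and 4.41 at CYP46A1 and 4.66 and 5.93 at ACOX2, against a required 4. They were 8.65 and 11.1 at AKR1D1, 8 and 5.35 at SLC27A2 and 16.2 and 8.2 at ABCD3. Where the local fold was near 4, a similar tag count could go unlisted in the controls.

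Of the 4 further uptake genes, 2 had regions, and 1 of their 5 compared regions passed (median log2 0.62). This was a promoter of SLCO2B1, an organic anion importer, with 21.5 and 21.0 against 37.8 and 36.9 (log2 0.79, SE 0.29, limma adjusted p = 0.0388), and it did not pass per kb of peak (limma adjusted p = 0.0937). A promoter of EPHX1, the microsomal epoxide hydrolase, held 17.5 and 29.0 against 30.2 and 26.4, with overlapping groups (log2 0.31, SE 0.31, limma adjusted p = 0.373, -0.45 after centring). SLCO2B1 also had a peak called under tazemetostat alone (21.2 and 15.1), at local folds of 5.08 and 4.03, against a required 4.

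Among the 10 further export genes, 12 of 17 compared regions passed (70.6%, against 42.7% of all tested regions, median log2 0.76). The promoter of ATP8B1, the canalicular phospholipid flippase, held 11.6 and 10.1 against 29.2 and 21.8 and rose 2.35-fold (log2 1.15, SE 0.30, limma adjusted p = 0.0124, 0.39 after centring). A promoter inside ABCC3, the basolateral exporter MRP3, held 27.9 and 34.9 against 53.9 and 51.9 (log2 0.74, SE 0.30, limma adjusted p = 0.0486, -0.02 after centring), and did not pass per kb of peak (limma adjusted p = 0.138). Peaks were called under tazemetostat alone over the starts of ABCB4, the phospholipid floppase (21.2 and 12), and ABCC4, the exporter MRP4 (15.1 and 11.7). They were also called 508 bp upstream of ABCG2 (22.2 and 13.6), 1006 bp upstream of SLC51B (20.2 and 16.2) and in intron 1 of ATP8B1 (12.1 and 15.4). Local folds were 4.38 and 5.21 at ABCB4, 4.84 and 4.35 at ABCC4 and 5.85 and 4.26 at SLC51B, against a required 4. At such folds a similar tag count could go unlisted in the controls.

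Among the 14 regulators, 13 of 24 compared regions passed (54.2%, against 42.7% of all tested regions, median log2 0.79). The NR5A2 promoter held 12.2 and 18.1 against 28.7 and 30.9 and rose 1.97-fold (log2 0.95, SE 0.30, limma adjusted p = 0.0231, 0.19 after centring), but did not pass per kb of peak (limma adjusted p = 0.0563). The promoter of HNF4A, the hepatocyte master regulator and also one of the hepatocyte markers above, held 22.7 and 42.9 against 66.0 and 56.8 (log2 0.95, SE 0.32, limma adjusted p = 0.0289, 0.19 after centring). The highest values among regions called under tazemetostat alone were in introns of MAFG, a repressor of bile acid genes (42.8 and 44.4), and of RXRA, the partner of FXR (41.3 and 36.1). Lower ones lay upstream of PPARA (19.7 and 26.4), in intron 6 of HNF4A (22.2 and 23.3) and in FGF19, the hormone that feeds back on CYP7A1 (12.1 and 12.8).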

How the data were processed

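Groups and replicate numbers came from the sample titles. Per the submitters' processing notes and the study's methods, reads were trimmed with Trim Galore 0.6.6, aligned to hg38 with Bowtie2 2.3.5.1 and turned into peaks with HOMER 4.11.1, library by library, replicates not being pooled. The file headers give 300 bp peaks stitched into regions, a required fold of 4 over the local 10 kb and a false discovery rate of 0.001. Normalised tag counts are deposited as a signal in tags per 10 M mapped tags. The deposited fold over local background and the clonal fold are ratios, of which the first was used. A deposited local p-value was left aside. The deposited score is a tag count of the initial peak and was read only to learn the calling limit. Multiplied by mapped tags, normalised tag counts came within 0.25 of whole numbers in 100% of peaks, and these whole tags entered edgeR and DESeq2.

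Peaks overlapping by at least 1 bp were merged across libraries and annotated with GENCODE release 44, promoters being 1 kb before to 100 bp after a transcription start. Regions with exactly 1 peak per library were tested with limma 3.58.1 on log2(normalised tag count + 1), where the added 1 shrinks the changes of weak peaks. The adjustment ran over all 15383 regions, with a threshold of 0.05. Alternatives were centring, values per kb, edgeR 4.0.16, DESeq2 1.42.0 (R 4.3.3), a pseudocount of 5, a minimum of 20, a replicate block, leaving out each library, and other rules for peaks and windows. The code was tested on simulated data. All 10 members are named with every region. Of the pathway list, the 2 largest promoter differences in each role and up to 5 genes with regions called under tazemetostat alone are named. The members and lists were chosen with earlier results of these data known. Depth was 17.2 to 26.6 M mapped tags, and Poisson intervals cover counting error only. Sequences were read from the hg38 genome, and RefSeq promoters of the same build were searched for motifs.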

Additional observations from a re-analysis of the deposited data

How the results depend on the processing

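The calls at the 7 member regions depended on the scale. With each library centred, limma called 0 members, 0 of the pathway list and 0 regions higher and 0 lower in the whole table, where unadjusted p fell under 0.05 in 468 regions upward and 1188 downward. With TMM factors in edgeR the counts were 0 members, 0 of the pathway list and 23 higher and 174 lower in the table (680 and 938 unadjusted). With DESeq2 they were 0, 0, and 3 higher and 106 lower (196 and 420 unadjusted), against 6569 higher and 38 lower in limma. Of the table's calls 99.4% were higher in limma, 11.7% with TMM and 2.75% with DESeq2. Per kb of peak, 21 of the pathway list passed in place of 36 (33.3%, against 32.9% of all tested regions). A minimum mean of 20 normalised tags left 9862 regions in the table, of which 23 were called lower. Called higher were 7 of 10 member regions (70.0%) and 29 of 46 of the pathway list (63.0%), against 54.1% of the 9862.

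Leaving out 1 library gave 0 to 8398 higher and 0 to 71 lower calls in the table, 0 to 8 among the members and 0 to 40 in the pathway list. The counts of 0 came from fits with 1 treated library, assumed to vary like the controls, in which no region of the table passed. The labels do not say whether same-numbered libraries were paired. Their deviations correlated at -0.0025, which cannot show how they were handled. A replicate block gave 5046 higher and 27 lower calls in the table, 5 among the members and 23 in the pathway list.

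None of the regions whose difference turned negative had passed the threshold. In the order centring, TMM and DESeq2 the values were -0.42, -0.33 and -0.34 for CYP7A1 region 1, -0.52, -0.45 and -0.45 for CYP8B1 region 2, -0.62, -0.56 and -0.57 for CYP8B1 region 4, -0.39, -0.38 and -0.36 for CYP27A1 region 4, -0.69, -0.61 and -0.59 for CYP27A1 region 6, -0.20, -0.15 and -0.14 for NR0B2 region 3, -0.094, -0.0024 and -0.0073 for SLC10A1 region 1, and -0.68, -0.61 and -0.61 for SLC10A1 region 3. ABCC2 region 2 came to -0.0053 after centring, and CYP8B1 region 4 to -0.021 per kb. Leaving out 1 library gave -0.48 to 0.62 for CYP27A1 region 6 and -0.036 to 0.20 for SLC10A1 region 3 (-0.15 and -0.036 without control 1, -0.48 without tazemetostat 1 and -0.0011 without tazemetostat 2). Beyond these settings the cause was not tested.

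Counts of peaks moved with the rule. Regions called under tazemetostat alone numbered 4, but 1 with equal numbers of peaks, 2 in gene bodies only, 13 with 50 kb flanks, 16 where 1 library of a group sufficed, and 4 to 11 when a library was left out. Regions of the controls alone numbered 1 with equal numbers of peaks, 3 where 1 library sufficed and 0 to 2 when a library was left out. Shared regions numbered 4 at a local fold of 8 or more, 10 in gene bodies, 34 with 50 kb flanks and 16 to 21 when a library was left out. The difference of 11 peaks between the groups became 5.5 at a local fold of 8, 0 with equal numbers of peaks, 33 with 50 kb flanks and 7 to 15 when a library was left out. Depth limits values near 6 to 8 normalised tags, where 1 library can list a peak that another misses. Higher peaks with a local fold near the required 4 were also listed in some libraries only. Examples were CYP27A1 region 3 (16.4 in control 2 and 20.2 in tazemetostat 1, local folds 4.3 and 4.43) and ABCC2 region 4 (15.4 in tazemetostat 2, local fold 4.87). An unlisted peak at such a site does not mean closed chromatin.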
